A study of Homo sapiens with 2 samples.

Results

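In WaGa cells, 502 of 10816 cells combined high levels of ID1 and ID3, which encode inhibitors of differentiation, with few transcripts of S phase and mitosis. WaGa is a cell line of human Merkel cell carcinoma, a neuroendocrine skin cancer that carries Merkel cell polyomavirus. A cell was counted in when ID1 plus ID3 reached at least 10 per 10000 of its unique molecular identifiers (UMIs, each marking 1 captured transcript), the histone gene HIST1H4C lay below 50 per 10000, fewer than 5 of 8 mitotic genes were detected and fewer than 4 of 8 G1/S genes were detected. These limits on the histone, mitotic and G1/S genes are called the cycle limits. Cells that met every condition are called ID-high, and cells inside the cycle limits with less ID1 plus ID3 are called ID-low. The cells were thus chosen by the measured values of the 19 genes of the rule, so their own levels are a description and support nothing.

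There were 2 samples, with 1 single-cell library each, made by droplet barcoding of suspension cultures and sequencing of transcript 3′ ends. One library was labelled as treated with domatinostat, an inhibitor of class I histone deacetylases dissolved in DMSO, and the other as having no treatment. The labels gave neither dose nor duration, and did not say whether the control received DMSO. With 1 library per group, treatment and library cannot be told apart, no test between conditions was possible, and the exact 95% intervals in brackets cover counting error only.

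ID1, ID2, ID3 and ID4 encode helix-loop-helix proteins that lack the basic region that binds DNA. They pair with E proteins such as TCF3 and so keep basic helix-loop-helix (bHLH) factors, ATOH1 and the neuronal NHLH1 among them, from binding DNA. In many cell types the ID genes are direct targets of bone morphogenetic protein (BMP) receptors acting through SMAD proteins, and they tend to be high in cells that are not yet differentiated. ATOH1 is known as the bHLH factor of Merkel cells, and in mouse it is required for them.

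The 4 ID genes were read together in these cells, so the 250 bases before each start site are shown. They come from the RefSeq table of build GRCh38.p14, in the direction of the gene, whereas the deposited table was made on hg19. The regions are chr20:31605039-31605288 on the plus strand for ID1, chr2:8681806-8682055 on the plus strand for ID2, chr1:23559502-23559751 on the minus strand for ID3 and chr6:19837120-19837369 on the plus strand for ID4. Capitals mark matches, on either strand, to CAGAC (the SMAD box), CCAAT and TATAAA.
ID1: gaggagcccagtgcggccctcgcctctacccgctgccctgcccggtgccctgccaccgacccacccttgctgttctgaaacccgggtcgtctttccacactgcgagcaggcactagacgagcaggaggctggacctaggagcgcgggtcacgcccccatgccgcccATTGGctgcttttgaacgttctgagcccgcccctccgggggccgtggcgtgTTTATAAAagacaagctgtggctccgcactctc
ID2: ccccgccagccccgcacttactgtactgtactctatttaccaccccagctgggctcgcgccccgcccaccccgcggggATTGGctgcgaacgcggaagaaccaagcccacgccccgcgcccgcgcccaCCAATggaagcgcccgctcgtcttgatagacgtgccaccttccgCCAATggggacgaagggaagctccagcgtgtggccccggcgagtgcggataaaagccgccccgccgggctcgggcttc
ID3: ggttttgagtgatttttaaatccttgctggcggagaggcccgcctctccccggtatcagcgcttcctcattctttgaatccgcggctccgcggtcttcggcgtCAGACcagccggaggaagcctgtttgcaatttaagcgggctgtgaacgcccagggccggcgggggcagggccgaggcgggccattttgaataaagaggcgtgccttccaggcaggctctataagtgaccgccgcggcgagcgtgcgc
ID4: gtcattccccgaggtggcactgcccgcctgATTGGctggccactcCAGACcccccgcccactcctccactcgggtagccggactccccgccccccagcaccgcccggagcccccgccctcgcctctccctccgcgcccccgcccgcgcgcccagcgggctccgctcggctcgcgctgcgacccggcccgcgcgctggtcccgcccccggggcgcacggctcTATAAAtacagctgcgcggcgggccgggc
The search covered 250 bases before to 50 after the start. CCAAT was found in 3 of the 4 windows, at 84 bases before the ID1 start, at 172, 122 and 78 before the ID2 start and at 220 before the ID4 start, and in 34.6% of 35116 promoters of the table. CAGAC was found in 2 of the 4, at 147 bases before the ID3 start and 205 before the ID4 start, against 45.3% of all promoters. TATAAA was found in 2 of the 4, in ID1 as an overlapping pair on opposite strands that begins 33 bases before the start and in ID4 at 29 bases, against 11.5% of all promoters. The GC-rich core GGCGCC, a sequence that SMAD1 and SMAD5 can bind, was in 0 of the 4 windows and in 19.2% of all promoters. These matches describe letters in a short window and not bound sites.

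ID-high cells made up 116 of 6679 cells, 1.74% (1.44 to 2.08), of the library labelled treated and 386 of 4137 cells, 9.33% (8.46 to 10.3), of the library labelled untreated. Of the cells inside the cycle limits, 5.6% (4.65 to 6.67) of 2073 cells were ID-high in the library labelled treated, against 27.0% (24.8 to 29.4) of 1427 cells in the library labelled untreated. The cycle limits themselves held 31.0% of cells labelled treated and 34.5% of cells labelled untreated. Outside the limits, ID1 plus ID3 of at least 10 per 10000 occurred in 5.6% of 4606 cells labelled treated and in 13.5% of 2710 cells labelled untreated. When cells were thinned to 4351 UMIs, the rule took in 2.48% of the cells labelled treated and 12.8% of those labelled untreated. Shallower cells were left out of the thinned values, 667 cells labelled treated, 19 of them ID-high, and 245 cells labelled untreated, 42 of them ID-high.

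Depth bears on such shares, because in a shallow cell few UMIs reach 10 per 10000. The mitotic and G1/S limits count detected genes, so shallow cells also pass them more easily. These limits were applied anew to the thinned cells, and the part of each in the thinned shares was not tested. The libraries held 60160108 UMIs (labelled treated) and 45562976 UMIs (labelled untreated), with a median of 8578 and 11125 UMIs per cell. ID-high cells had a median of 6563.5 UMIs in the library labelled treated, where ID-low cells had 6316, and 7894 UMIs in the library labelled untreated, where ID-low cells had 7486. Mitochondrially encoded transcripts took 4.31% of the UMIs of ID-high cells and 4.46% of those of ID-low cells in the library labelled treated, and 4.58% and 4.86% in the library labelled untreated. The libraries shared 48 cell barcodes, among them those of 1 ID-high cell labelled treated and 5 labelled untreated. CDKN1A is the gene of the p21 inhibitor of cyclin-dependent kinases that such drugs are known to induce. It was lower in ID-high and in ID-low cells of the library labelled treated, with the ratios given below, so the libraries are named by their labels throughout. Whether the treatment words in the cell names were exchanged was not tested, and if they were, every direction between the libraries would turn round.

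**Figure D1:**
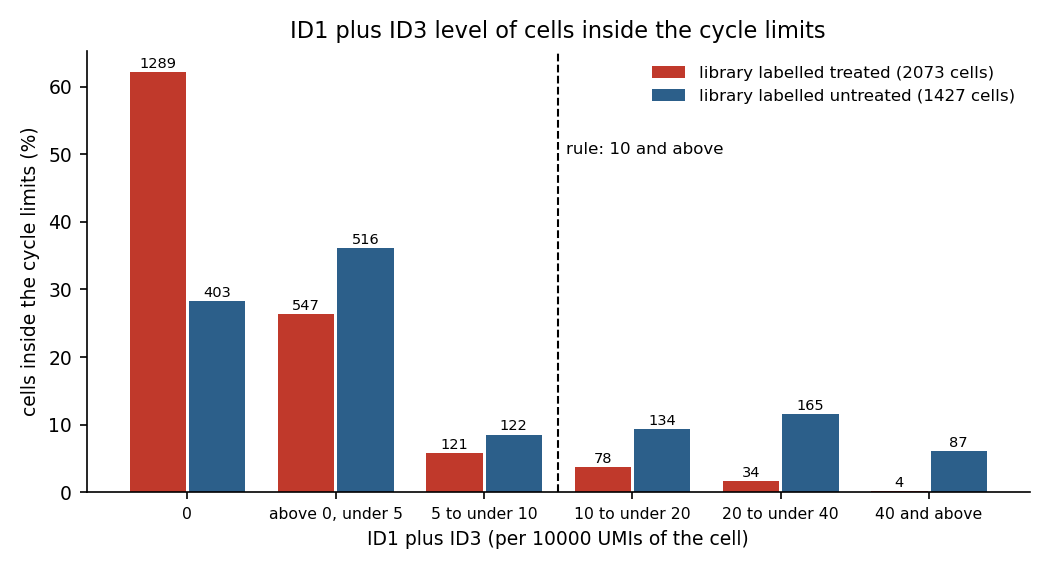
Share of cells inside the cycle limits (vertical axis, percent) by their ID1 plus ID3 level per 10000 UMIs (horizontal axis), for the library labelled treated (red) and the library labelled untreated (blue), with the number of cells above each bar. Of the cells labelled treated, 1289 have neither transcript and 4 reach 40 per 10000, against 403 and 87 of the cells labelled untreated.

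The ID1 plus ID3 level of ID-high cells ran from 10.1 per 10000 through a median of 15.1 to 59.0 in the library labelled treated, and from 10.0 through 25.7 to 104.3 in the library labelled untreated. The threshold fell within a continuous range of levels, so ID-high is a range of a score and not a cell type. Whether the cells form a separate group was not tested. The cells labelled treated numbered 121 at 5 to 10 per 10000, 78 at 10 to 20, 34 at 20 to 40 and 4 above 40, and those labelled untreated 122, 134, 165 and 87 over the same steps. Near the threshold, 39 cells labelled treated lay at 8 to 10 per 10000 and 26 at 10 to 12, against 42 and 32 cells labelled untreated. The cells at 10 to 12 were 22.4% of the ID-high cells labelled treated and 8.29% of those labelled untreated. Single ID-high cells held 3 to 32 UMIs of the pair (median 10) in the library labelled treated and 3 to 147 (median 20) in the library labelled untreated.

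ID1 stood at 1298 counts per 1000000 (CPM) in ID-high cells and 63.9 CPM in ID-low cells of the library labelled treated, and at 2218 CPM in ID-high cells and 93.8 CPM in ID-low cells of the library labelled untreated. ID3 stood at 501 CPM in ID-high cells and 43.1 CPM in ID-low cells labelled treated, and at 872 CPM and 104 CPM in the same sets labelled untreated. Both were present in the same cell in 85.3% of ID-high cells labelled treated, against 7.56% of ID-low cells, and in 87.0% of ID-high cells labelled untreated, against 17.4% of ID-low cells. This follows in part from the rule, which sums the pair.

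Genes outside the rule were set against ID-low cells of the same library as a ratio of CPM. A gene counted as measured when at least 20 UMIs were expected in each set from the pooled level, and as higher or lower when it was at least 1.5-fold so. Of 4348 genes measured in the library labelled treated, 39 were higher (0.897%) and 86 were lower (1.98%). Of 8979 genes measured in the library labelled untreated, 282 were higher (3.14%) and 272 were lower (3.03%). The median log2 ratio over all measured genes was -0.01 and 0.00, so the scale did not move. Of the 4348 genes measured in both libraries, 8 were higher in both (0.184%) and 1 was lower in both (0.023%). Among these 4348 genes, 39 were higher (0.897%) and 45 were lower (1.03%) in the library labelled untreated. Whether 1 shared lower gene is more than unrelated calls would give was not tested. The 8 were ID2, ID4, LONRF2, KRT19, JUNB, JUN, DLX4 and GADD45G, and the 1 was AKT1, which encodes a growth-signalling kinase and was named after its values were seen, with ratios of 0.543 (0.278 to 0.960) and 0.613 (0.437 to 0.844) in the libraries labelled treated and untreated. For each of these 9 genes the counting intervals lay wholly on that side of 1 in both libraries. The intervals rest on the same counts that picked the genes, so they add no support. In the library labelled treated 39 of the 39 higher genes and 55 of the 86 lower genes had such intervals.

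ID2 and ID4 ranked highest over both libraries. ID2 stood at 200 CPM (169 to 234) in ID-high cells and 52.7 CPM (48.8 to 56.9) in ID-low cells of the library labelled treated. In cells labelled untreated it stood at 338 CPM (318 to 359) in ID-high cells and 73.3 CPM (67.5 to 79.5) in ID-low cells. The ratios were 3.79 (3.15 to 4.53) and 4.61 (4.16 to 5.10), and under the alternatives run for the same comparison they ranged from 3.34 to 4.85 and from 3.53 to 4.72. ID4 stood at 174 CPM in ID-high cells and 78.6 CPM in ID-low cells labelled treated, a ratio of 2.22 (1.83 to 2.66). Among cells labelled untreated ID4 stood at 235 CPM in ID-high cells and 85.0 CPM in ID-low cells, a ratio of 2.77 (2.49 to 3.07).

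The difference also showed in the number of cells with a transcript. For the shares given here, cells kept the set they had before thinning, whereas ratios given below for thinned cells use the rule applied anew. At 4351 UMIs per cell, ID2 was detected in 53.6% (43.2 to 63.8) of 97 ID-high cells and 17.1% (15.3 to 19.1) of 1542 ID-low cells labelled treated, and in 68.6% (63.4 to 73.5) of 344 ID-high cells and 22.5% (19.7 to 25.4) of 877 ID-low cells labelled untreated. Without thinning the shares were 67.2% and 23.8% in the library labelled treated and 83.7% and 34.7% in the library labelled untreated. ID4 was detected, after thinning, in 53.6% of ID-high cells and 27.6% of ID-low cells labelled treated, and in 56.4% and 26.6% of those labelled untreated. A single line offers no cell type that lacks these genes, so the part of free RNA in these shares was not tested.

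**Figure D2:**
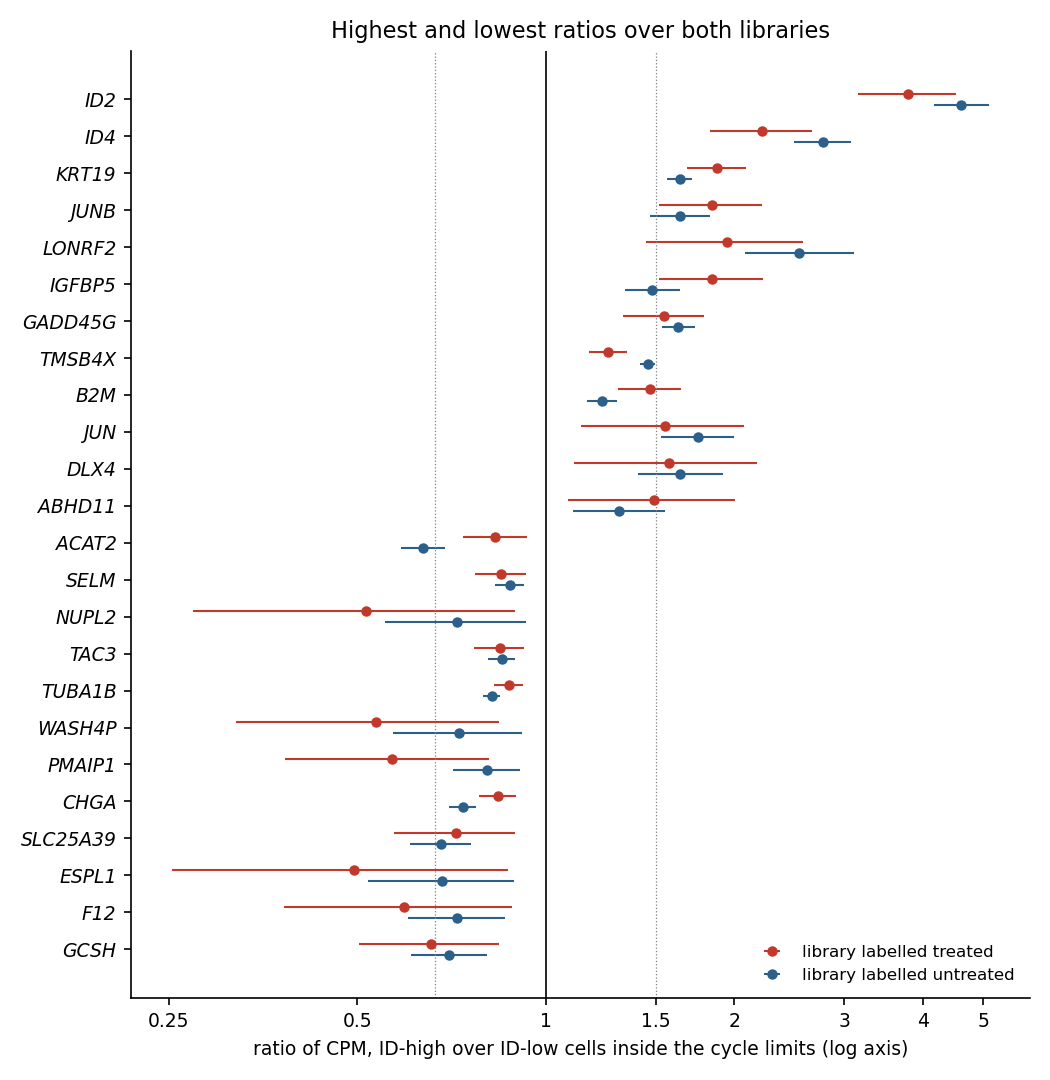
Ratio of CPM in ID-high over ID-low cells (horizontal log axis), with exact 95% counting intervals, for the library labelled treated (red) and the library labelled untreated (blue). Drawn are the 12 highest and 12 lowest genes over both libraries, ranked by the interval bound nearest to 1 and not by the ratio. AKT1 is therefore not drawn. Dotted lines mark 1.5-fold either way; ID2 lies farthest to the right at 3.79 and 4.61.

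Few BMP-responsive genes could be measured, and ID2 and ID4 were among those that were higher. Both belong to the family of ID1 and ID3, by which the cells were chosen, and BMP signalling itself was not tested. Of 13 listed SMAD feedback genes and direct BMP targets, 3 were measured in the library labelled treated and all 3 were higher, while 4 of 6 were higher in the library labelled untreated (median log2 ratios 1.15 and 0.69). They were ID2, ID4 and JUNB in both libraries and TGIF2 in the library labelled untreated, the last at 1.59 with an interval of 0.965 to 2.59 that includes 1. JUNB, an AP-1 transcription factor, stood at 167 CPM in ID-high cells and 90.9 CPM in ID-low cells labelled treated, a ratio of 1.84 (1.52 to 2.22). Among cells labelled untreated JUNB stood at 171 CPM in ID-high cells and 104 CPM in ID-low cells, a ratio of 1.64 (1.47 to 1.83).

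The classical feedback inhibitors of the pathway were almost undetected. SMAD6 had 0 UMIs in ID-high cells labelled treated and 1 in those labelled untreated, SMAD7 had 0 and 2, and BAMBI, which encodes a decoy receptor, had 0 and 2. A count of 0 allows up to 4.02 CPM in the ID-high cells labelled treated. Of 22 listed genes of BMP and activin signal transduction, 1 was measured in the library labelled treated and was not called, and 2 of 10 were higher in the library labelled untreated, with a median log2 ratio of 0.30. SMAD9, which encodes a BMP receptor-regulated SMAD, stood at 47.7 CPM in ID-high cells and 17.6 CPM in ID-low cells labelled untreated, a ratio of 2.71 (2.14 to 3.43). SMAD9 did not reach the minimum in the library labelled treated, with 13 UMIs in ID-high cells and a ratio of 2.54 (1.30 to 4.57). BMP7, a ligand of the pathway, had ratios of 0.933 (0.771 to 1.12) in the library labelled treated and 1.00 (0.890 to 1.13) in the library labelled untreated.

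Few E proteins and bHLH factors, the partners and targets of ID proteins, passed 1.5-fold. None of 6 measured bHLH genes was 1.5-fold higher or lower in the library labelled treated, and 2 of 11 were higher in the library labelled untreated (median log2 ratios 0.05 and 0.25). The counting interval lay wholly above 1 for 1 of the 6 and for 6 of the 11, and wholly below 1 for none. The share of such intervals over all measured genes was not worked out. The E protein gene TCF3 had ratios of 0.745 (0.430 to 1.21) and 0.832 (0.634 to 1.08), and TCF4, another E protein gene, 0.935 (0.674 to 1.27) and 1.20 (1.03 to 1.39), in the libraries labelled treated and untreated. ATOH1 was rare, at 5.36 CPM in ID-high cells and 7.66 CPM in ID-low cells labelled treated and at 8.78 and 7.57 CPM in those labelled untreated, where its ratio was 1.16 (0.714 to 1.84). The genes past the fold in the library labelled untreated were HES1, a transcriptional repressor downstream of Notch, at 1.88 (1.54 to 2.30), and NHLH2 at 1.51 (1.20 to 1.90). HES1 in the library labelled treated had 13 UMIs in ID-high cells, under the minimum, with a ratio of 3.31 (1.67 to 6.05).

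NHLH1, H1F0 and GADD45G had been named beside ID1 and ID3 as markers of these cells, and 1 of the 3 passed 1.5-fold over ID-low cells in both libraries. GADD45G, a growth arrest and stress gene, stood at 259 CPM in ID-high cells and 167 CPM in ID-low cells labelled treated, a ratio of 1.55 (1.33 to 1.79), and at 551 and 338 CPM in those labelled untreated, a ratio of 1.63 (1.53 to 1.73). H1F0, the linker histone gene of cells that have stopped dividing, had a ratio of 1.74 (1.63 to 1.85) in the library labelled untreated and of 1.24 (1.04 to 1.48) in the library labelled treated, where it was not called. NHLH1 reached 1.5-fold in neither library, with ratios of 1.05 (0.911 to 1.19) in the library labelled treated and 1.42 (1.30 to 1.55) in the library labelled untreated. Against all other cells of the library, cycling cells included, the NHLH1 ratios were 1.87 and 2.45. With a threshold of 20 per 10000 in place of 10, H1F0 passed 1.5-fold in both libraries, at 1.68 and 2.01 in the libraries labelled treated and untreated, and NHLH1 had 1.12 and 1.68. For cells labelled treated the GADD45G ratio was 1.27 with a threshold of 5 and 1.40 in thinned cells, under 1.5-fold, and H1F0 had 0.987 with a threshold of 5.

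The cells inside the cycle limits were also graded by ID1 plus ID3. ID2 was higher in each step of the ID1 plus ID3 level, in the library labelled untreated at 57.3 CPM in cells with neither transcript, 65.9 CPM below 5 per 10000, 154 CPM at 5 to 10, 237 CPM at 10 to 20, 342 CPM at 20 to 40 and 482 CPM above 40. Among cells labelled treated ID2 stood at 41.2, 62.0, 125, 165 and 264 CPM over the first 5 steps, and the last held 4 cells. ID4 in the library labelled untreated rose over the first 5 steps as well, at 70.8, 83.3, 134, 149 and 253 CPM. KRT19 did so in the library labelled treated, at 257, 284, 317, 407 and 721 CPM. ID4 labelled treated and KRT19 labelled untreated did not rise over the first 2 steps. H1F0, NHLH1, GADD45G and INSM1 were not graded in this way over the lower steps in the library labelled untreated. In the library labelled untreated H1F0 stood at 346, 255, 385 and 352 CPM over the first 4 steps and at 536 and 762 CPM above 20 and above 40 per 10000. NHLH1 stood at 191, 177, 169 and 171 CPM over the first 4 steps and at 253 and 390 CPM over the last 2. GADD45G stood at 371, 315, 352 and 365 CPM over the first 4 steps and at 605 and 733 CPM over the last 2, and INSM1 at 192, 162, 179 and 185 CPM and then at 292 and 346 CPM. The highest levels of these 4 genes in the library labelled untreated were thus in the cells above 20 per 10000. Among cells labelled treated GADD45G stood at 163, 177, 166, 223 and 287 CPM and H1F0 at 151, 153, 115, 157 and 198 CPM over the first 5 steps.

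**Figure D3:**
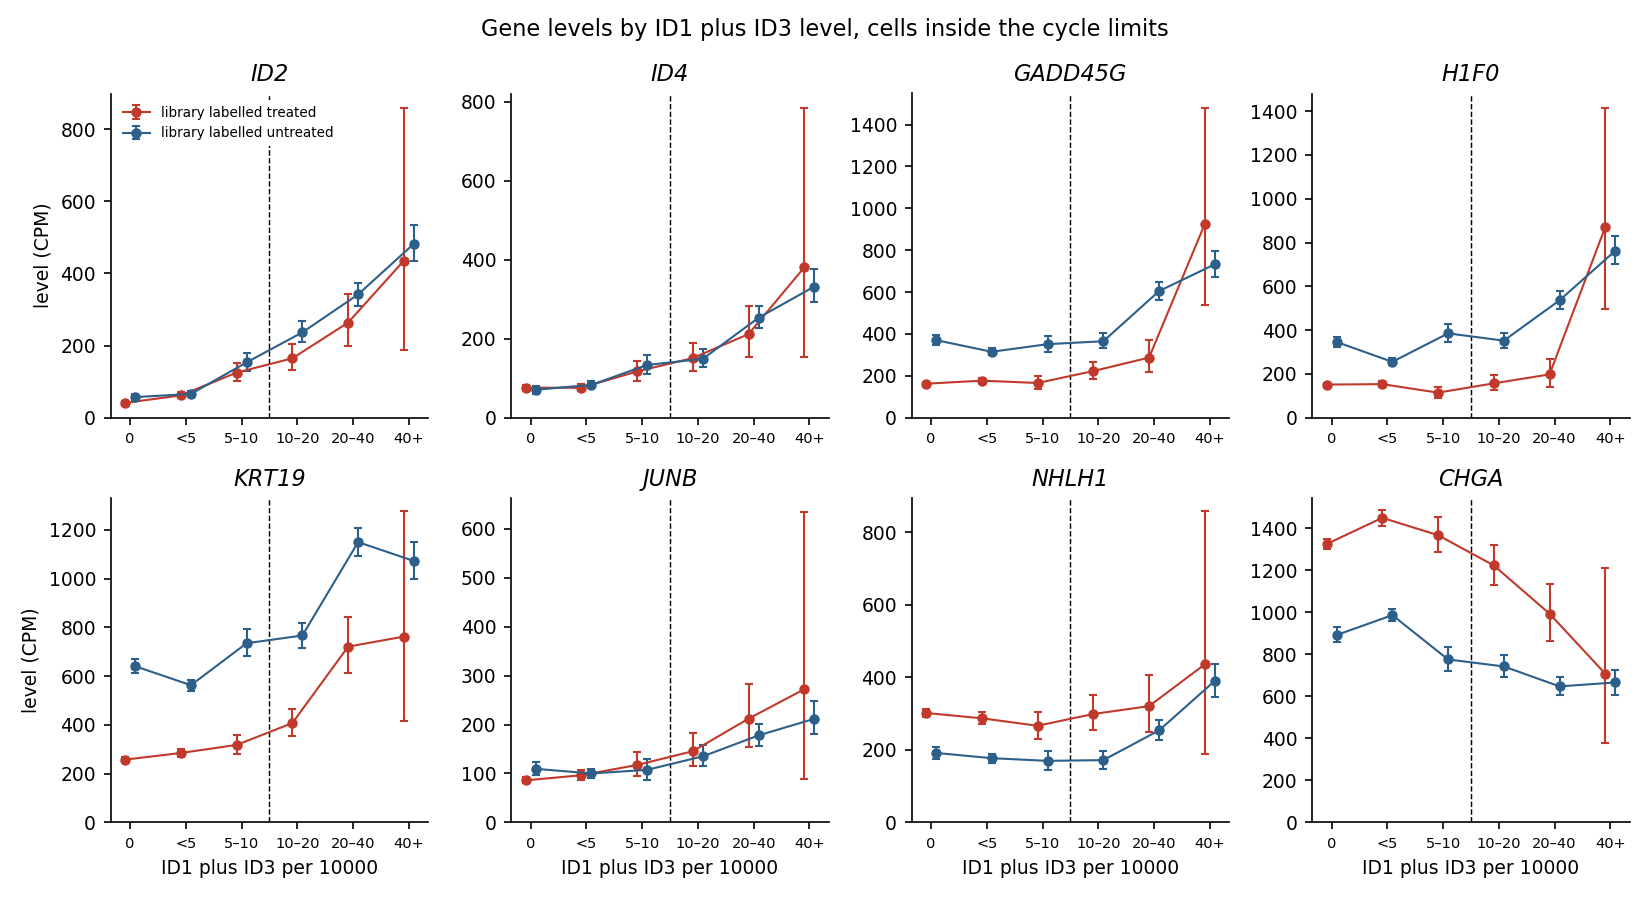
Level (vertical axis, CPM of the summed cells) of 8 genes by the ID1 plus ID3 level of the cells (horizontal axis, per 10000), with exact 95% Poisson intervals, for the library labelled treated (red) and the library labelled untreated (blue); the dashed line is the threshold of 10. In the library labelled untreated ID2 climbs over the whole range and NHLH1 above 20 per 10000 only, and the last step of the library labelled treated holds 4 cells.

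Epithelial and immediate early genes were among the higher ones. KRT19, a simple epithelial keratin gene, stood at 505 CPM in ID-high cells and 269 CPM in ID-low cells labelled treated, a ratio of 1.88 (1.68 to 2.09). Among cells labelled untreated KRT19 stood at 997 CPM in ID-high cells and 609 CPM in ID-low cells, a ratio of 1.64 (1.56 to 1.71). KRT20, the keratin used to diagnose Merkel cell carcinoma, was near its ID-low level, with ratios of 0.976 (0.841 to 1.13) and 0.962 (0.887 to 1.04), and KRT8, a keratin of simple epithelia and of Merkel cells, had 1.28 (1.16 to 1.40) and 1.13 (1.08 to 1.18). In all, 1 of 5 measured keratin genes was higher in the library labelled treated and 2 of 6 in the library labelled untreated.

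JUN, an AP-1 subunit and immediate early gene, stood at 67 CPM in ID-high cells and 43.2 CPM in ID-low cells labelled treated, a ratio of 1.55 (1.14 to 2.08), and had 1.75 (1.53 to 2.0) in the library labelled untreated. Of the measured immediate early genes, 1 of 4 was higher in the library labelled treated and 3 of 10 in the library labelled untreated (median log2 ratios 0.33 and 0.44). JUND, a further AP-1 subunit, had 0.910 (0.696 to 1.17) and 0.954 (0.816 to 1.11). DLX4, a homeobox gene, had ratios of 1.57 (1.11 to 2.18) and 1.64 (1.40 to 1.92), and LONRF2, which encodes a RING finger protein, 1.95 (1.45 to 2.58) and 2.54 (2.08 to 3.10). IGFBP5, a gene of an insulin-like growth factor binding protein, had 1.84 (1.52 to 2.22) and 1.48 (1.34 to 1.64). Among cells of 7000 to 12000 UMIs, where the sets are fewer and alike in depth, GADD45G at 1.41, JUN at 1.28 and DLX4 at 1.10 in the library labelled treated, and JUNB at 1.37 and DLX4 at 1.41 in the library labelled untreated, fell short of 1.5-fold. Among cells labelled treated JUN had 1.41 and DLX4 1.31 with a threshold of 5 per 10000, JUN 1.33 in thinned cells, and JUN 1.45 and DLX4 1.44 with a pseudocount of 10 CPM, all under 1.5-fold.

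More genes could be measured in the 386 ID-high cells labelled untreated, and some with high ratios there are named after their values were seen. DLX3, another homeobox gene, had a ratio of 2.27 (1.78 to 2.89) and CLDN4, a tight junction gene, 2.03 (1.77 to 2.32). KRT15, a basal keratin gene, had 1.88 (1.51 to 2.33) and MGP, which encodes the matrix Gla protein that inhibits calcification, 1.70 (1.52 to 1.90). In the library labelled treated CLDN4 had 1.32 (0.926 to 1.83) and MGP 1.36 (1.06 to 1.73), and DLX3 and KRT15 were under the minimum there.

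Neuroendocrine genes stood on both sides of their ID-low level. The summed level of 10 Merkel cell carcinoma markers was 2831 CPM in ID-high cells and 2836 CPM in ID-low cells labelled treated, and 2858 CPM and 2894 CPM in those labelled untreated. CHGA, which encodes the granule protein chromogranin A, stood at 1145 CPM in ID-high cells and 1366 CPM in ID-low cells labelled treated, a ratio of 0.838 (0.782 to 0.898). CHGA in cells labelled untreated stood at 685 CPM in ID-high cells and 930 CPM in ID-low cells, a ratio of 0.737 (0.702 to 0.773). Among Merkel and neuroendocrine transcription factors, 0 of 9 were called in the library labelled treated and 2 of 12 were higher in the library labelled untreated (median log2 ratios 0.00 and 0.29). Of the 12, 10 had ratios above 1, 7 of them with an interval wholly above 1, and of the 9 in the library labelled treated 4 had ratios above 1, 1 of them with such an interval. No share of such intervals over all measured genes was worked out. The called genes were INSM1, a neuroendocrine zinc finger gene, at 1.53 (1.41 to 1.67), and SOX2, a stem cell and Merkel cell factor gene, at 1.52 (1.37 to 1.69), while in the library labelled treated INSM1 had 1.02 (0.836 to 1.24) and SOX2 0.962 (0.791 to 1.16).

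Markers of blood and stromal cell types were low or absent in these sets. T and NK cell markers had 0 UMIs for 5 of 5 genes in all 4 sets, and all 6 myeloid markers were at 0 in ID-high cells labelled treated and 5 of 6 in those labelled untreated. Fibroblast markers summed to 20.1 CPM in ID-high cells and 16.8 CPM in ID-low cells labelled treated and to 34.2 and 21.7 CPM in those labelled untreated, with 4, 4, 3 and 2 of 6 genes at 0. B cell markers summed to 21.4 and 17.9 CPM in ID-high and ID-low cells labelled treated and to 22.0 and 19.6 CPM in those labelled untreated. Endothelial markers summed to 17.4 and 14.0 CPM in ID-high and ID-low cells labelled treated and to 7.53 and 10.9 CPM in those labelled untreated, melanocyte markers to 2.68 and 0.479 CPM and to 3.76 and 2.73 CPM, and erythroid markers to 4.02 and 0.798 CPM and to 9.10 and 2.73 CPM, the melanocyte and erythroid sums resting on 2 to 29 UMIs. Keratinocyte markers summed to 344 and 337 CPM in ID-high and ID-low cells labelled treated and to 364 and 400 CPM in those labelled untreated.

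Listed G2/M genes that the rule did not use were called lower in the library labelled untreated alone, and whether the libraries differ in this was not tested. ESPL1, a mitotic gene outside that list, was called lower in the library labelled treated alone, with its ratios given below. Of 27 listed G2/M genes, 0 of 12 measured ones were called in the library labelled treated and 12 of 22 were lower in the library labelled untreated (median log2 ratios -0.15 and -0.60). MKI67, the proliferation marker, had ratios of 0.722 (0.459 to 1.09) in the library labelled treated and 0.451 (0.321 to 0.622) in the library labelled untreated, and TOP2A, a DNA topoisomerase of dividing cells, 1.00 (0.767 to 1.29) and 0.579 (0.458 to 0.725). The rule allows some mitotic transcripts: none of the 8 mitotic genes was detected in 54.3% of ID-high cells and 53.4% of ID-low cells labelled treated, and in 61.4% and 54.6% of those labelled untreated. The part of this imbalance in the G2/M ratios was not tested. In cells with none of the 8 mitotic genes, an alternative chosen after seeing the data, ID2 had 3.91 and 4.65, ID4 2.14 and 2.71, and GADD45G 1.68 and 1.41, in the libraries labelled treated and untreated.

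Among growth arrest genes, 1 of 10 measured was higher in the library labelled treated and 2 of 19 in the library labelled untreated. In the library labelled untreated CDKN1A joined GADD45G, at 179 CPM in ID-high cells and 118 CPM in ID-low cells, a ratio of 1.53 (1.37 to 1.70), and in the library labelled treated CDKN1A had 1.26 (0.908 to 1.72). CDKN1B and CDKN1C, which encode related inhibitors of cyclin-dependent kinases, were not called in either library, with ratios of 0.906 and 1.15 in the library labelled treated and 1.19 and 0.943 in the library labelled untreated. Replication-dependent histone genes other than HIST1H4C were higher for 4 of 11 in the library labelled untreated, the linker histone gene HIST1H1C at 1.69 (1.45 to 1.96) among them, and for 0 of 4 in the library labelled treated.

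Genes of cholesterol synthesis stood lower in ID-high cells of the library labelled untreated. There 4 of 22 measured genes were lower and 16 had an interval wholly below 1, with a median log2 ratio of -0.39. Over all measured genes of that library 3.03% were lower and the median was 0.00. The share of all measured genes with an interval wholly below 1 was not worked out. Such an interval was also found for 8 of 21 cytoskeletal genes there. ACAT2, which encodes the thiolase at the entry of the pathway, stood at 237 CPM in ID-high cells and 371 CPM in ID-low cells, a ratio of 0.638 (0.588 to 0.691), and the sterol reductase gene TM7SF2 had 0.615 (0.477 to 0.785). Of 18 genes measured in the library labelled treated 0 were called, the median was -0.12, and ACAT2 had a ratio of 0.830 (0.737 to 0.933). Ranked by the interval bound nearest to 1 and not by the ratio, ACAT2 was among the 12 lowest genes over both libraries. So were GCSH of the glycine cleavage system at 0.657 and 0.702 and ESPL1, which encodes the mitotic protease separase, at 0.494 and 0.684. Others among the 12 were the coagulation factor gene F12 at 0.594 and 0.722, the apoptosis gene PMAIP1 at 0.568 and 0.805, and TAC3, which encodes neurokinin B, at 0.844 and 0.852.

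The remaining lists held few called genes in either library. Calls at 1.5-fold leave out smaller shifts. The median log2 ratio of G1 cyclins, kinases and E2F factors was -0.21 labelled treated and -0.27 labelled untreated, where 0 of 8 were above 1. For HLA class I and loading genes the median was 0.02 labelled treated and -0.21 labelled untreated. Of those 8 genes labelled untreated, 5 had an interval wholly below 1 and 2 wholly above. In the library labelled treated 0 of 19 S phase genes were called, and 2 of 22 were lower in the library labelled untreated, where TYMS, which makes thymidylate, had 0.671 (0.571 to 0.786). For secretory granule genes the counts were 0 of 14 and 0 of 16, for HLA class I and loading genes 0 of 7 and 0 of 8, for histone deacetylases and their complex partners 0 of 13 and 0 of 18, and for Notch pathway genes 0 of 3 and 0 of 5. HES1, given above, was counted among the bHLH genes and not in the Notch list. Among neuronal structure genes 1 of 14 was lower in the library labelled treated, ELAVL2 of the neuronal RNA-binding proteins at 0.625 (0.428 to 0.885), and 1 of 16 in the library labelled untreated, the neuronal enolase gene ENO2 at 0.633 (0.535 to 0.745). Of the G1 cyclins, kinases and E2F factors 1 of 6 was higher in the library labelled treated, E2F2 at 1.62 (1.09 to 2.34), and 0 of 8 were called in the library labelled untreated, where E2F2 had 0.827 (0.621 to 1.09). The counts were 0 of 18 and 1 lower of 19 for ribosome biogenesis and MYC targets, 0 of 16 and 1 higher of 21 for heat shock and stress genes, 0 of 9 and 1 higher of 9 for replacement histones, and 0 of 11 and 1 lower of 15 for glycolysis. They were 0 of 18 for cytoskeletal genes, with 1 higher and 1 lower of 21 in the library labelled untreated, 0 of 4 and 1 lower of 5 for metallothioneins, and 0 of 1 for interferon response genes, with 1 higher and 1 lower of 4 in the library labelled untreated.

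**Figure D4:**
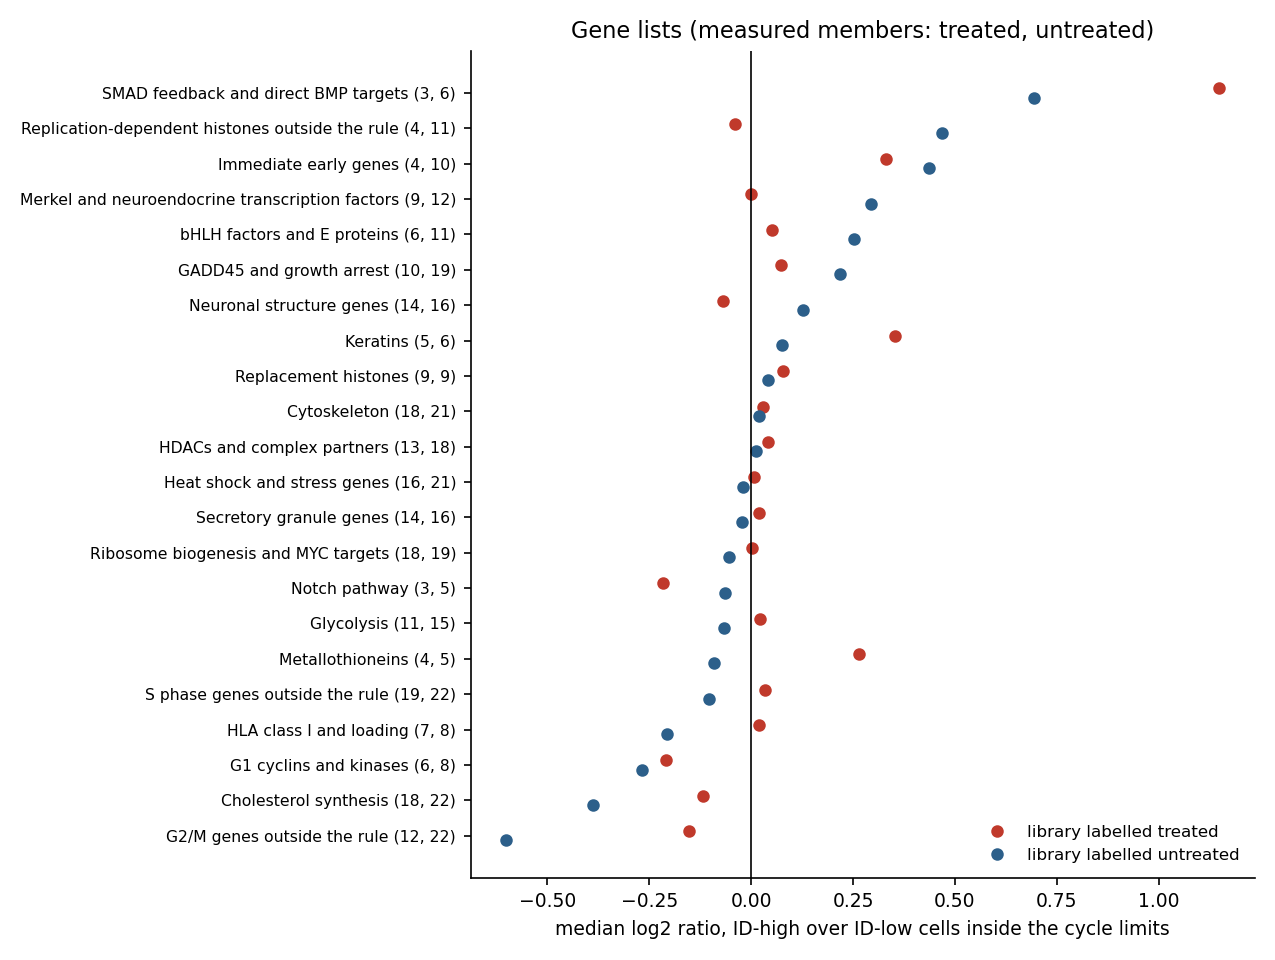
Median log2 ratio of ID-high over ID-low cells (horizontal axis) of each gene list with at least 3 measured members in both libraries, for the library labelled treated (red) and the library labelled untreated (blue), with the numbers of measured members in brackets. The BMP target list, which holds ID2 and ID4, lies highest at 1.15 and 0.69, and the G2/M list lowest for the library labelled untreated at -0.60.

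Cells outside the cycle limits, which ID-high cells exclude, were split at the same 10 per 10000 as an alternative chosen after seeing the data. They share no cell with the sets above. There 11 of 8302 genes measured in both libraries were higher in both (0.132%) and 5 were lower in both (0.0602%), namely ZNF12, MEN1, INPPL1, SALL2 and DPH6, named after their values were seen. The 11 included ID2, ID4 and JUNB, and also SMAD9 and DLX3, which were measured inside the limits in the library labelled untreated alone. ID2 had ratios of 3.84 (3.51 to 4.20) and 3.53 (3.26 to 3.83), ID4 1.87 (1.68 to 2.06) and 2.19 (2.02 to 2.37), JUNB 1.61 (1.42 to 1.81) and 2.07 (1.90 to 2.25), SMAD9 2.0 (1.5 to 2.63) and 2.05 (1.71 to 2.45), in the libraries labelled treated and untreated. GADD45G, at 1.11 and 1.42, KRT19, at 1.33 and 1.22, and H1F0, at 1.12 and 1.28, did not reach 1.5-fold there, and NHLH1 had 0.948 and 0.905. SOX2, at 0.898 and 0.860, stood on the other side of 1 in the library labelled untreated from its ratio inside the limits.

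Against all other cells of the library, most of which lie outside the cycle limits, 25 of 4437 genes were higher in both libraries (0.563%) and 208 were lower in both (4.69%). ID2 had ratios of 3.11 and 4.54 and ID4 of 2.0 and 2.67, close to those against ID-low cells. TOP2A had 0.180 and 0.0999 and MKI67 0.159 and 0.112, a difference that the cycle limits of the rule bring with them.

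Between the libraries, ID-high cells labelled treated were set against ID-high cells labelled untreated. Of 4372 measured genes, 249 were higher (5.7%) and 340 were lower (7.78%) in the library labelled treated. ID-low cells, compared in the same way, had 493 of 11009 genes higher (4.48%) and 1057 lower (9.6%), over more cells. ID2 stood at 200 CPM in ID-high cells labelled treated and 338 CPM in those labelled untreated, a ratio of 0.591 (0.494 to 0.702), beside 0.719 in ID-low cells, and ID4 had 0.740 (0.610 to 0.893) beside 0.924. Within ID-high cells of 10 to under 20 per 10000, an alternative chosen after seeing the data, the ratios between the libraries were 0.696 for ID2 and 1.01 for ID4.

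CDKN1A had a ratio of 0.329 (0.236 to 0.447) in ID-high cells and 0.397 in ID-low cells, H1F0 0.355 (0.296 to 0.422) and 0.497, GADD45G 0.469 (0.402 to 0.545) and 0.495, and KRT19 0.507 (0.454 to 0.564) and 0.442. All 4 were thus lower in the library labelled treated in both sets of cells. The stress gene DDIT4 had 0.300 (0.197 to 0.440) beside 0.372, and RGS16, a regulator of G protein signalling, 0.227 (0.128 to 0.375) beside 0.429. Of 12 measured growth arrest genes 6 were lower, with a median log2 ratio of -0.55, against 0.03 over all measured genes, and in ID-low cells 7 of 21 were lower and 1 was higher, with a median of -0.38. The 12 and the 21 are not the same set of genes.

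On the other side, TOP2A stood at 85.7 CPM in ID-high cells labelled treated and 29.8 CPM in those labelled untreated, a ratio of 2.88 (2.06 to 3.99), beside 1.66 in ID-low cells. FAM64A, a mitotic regulator gene, had 3.30 (2.51 to 4.33) beside 1.73, and the HLA class I gene HLA-B 1.95 (1.82 to 2.09) beside 1.75. HLA-B does not stand for its list. The 7 measured HLA class I and loading genes had ratios from 0.670 to 1.95 in ID-high cells, with 2 higher and 0 lower. In ID-low cells 2 of 9 were higher and 2 were lower. Of 10 measured G2/M genes 5 were higher in ID-high cells, with a median log2 ratio of 0.59, and 4 of 27 in ID-low cells, with a median of 0.25. In cholesterol synthesis 10 of 17 genes were higher in ID-high cells, with a median of 0.62, and 3 of 23 in ID-low cells, with a median of 0.34. Fewer genes of both lists were measured in ID-high cells, so the counts and medians rest on unlike sets of genes. SQLE, which encodes squalene epoxidase, had a ratio of 1.87 beside 1.42 and HMGCS1, which encodes the synthase of HMG-CoA, 1.94 beside 1.44. CHGA had 1.67 (1.54 to 1.81) beside 1.47, and NHLH1 1.20 (1.03 to 1.39) beside 1.63. The ID-high sets differ in ID1 plus ID3 level, with medians of 15.1 per 10000 labelled treated and 25.7 labelled untreated. In cells of 10 to under 20 per 10000 labelled treated and untreated, NHLH1 stood at 299 and 172 CPM and TOP2A at 85.3 and 47.3 CPM. CHGA stood at 1223 and 742 CPM and H1F0 at 157 and 352 CPM in the same cells. Whether the ratio in ID-high cells differs from that in ID-low cells was not tested.

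**Figure D5:**
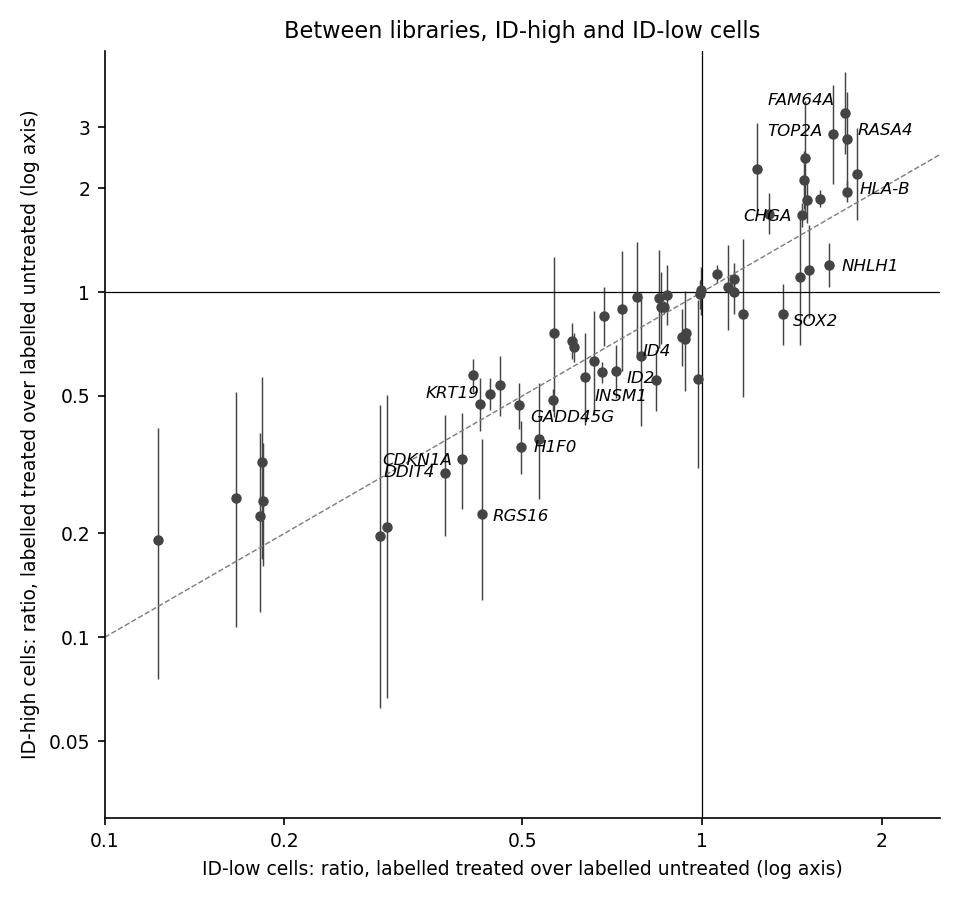
Ratio of CPM in the library labelled treated over the library labelled untreated for 61 named genes, in ID-high cells (vertical log axis, with exact 95% counting intervals) and in ID-low cells (horizontal log axis); the dashed line marks equal ratios. CDKN1A, H1F0 and GADD45G lie at lower left at 0.329, 0.355 and 0.469 in ID-high cells, and TOP2A and FAM64A lie at upper right at 2.88 and 3.30.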

How the data were processed

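The 2 samples are single-cell libraries of WaGa cells, 1 labelled treated with domatinostat and 1 with no treatment. Cell Ranger, Seurat and the build hg19 are named, per the submitters' processing notes. The authors deposited 1 table of 32742 genes and 10816 cells in natural log units. Back-transformed (exponential minus 1), the values of each cell sum to 10000, and 100% of values were whole UMIs within a relative tolerance of 1e-06. UMIs were recovered in this way, and cells were assigned by the treatment word that ends their names. No cell was filtered, doublets were not called, and the deepest 5% of each library's cells were left out in an alternative. Depth was 2718 to 25547 UMIs per cell in the library labelled treated and 2066 to 26525 in the library labelled untreated.

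UMIs were summed over each set of cells and scaled to CPM, and 2 sets were compared by the ratio of CPM with an exact conditional (Clopper-Pearson) 95% interval. Levels have exact Poisson intervals and shares exact Clopper-Pearson intervals, and the limit for a count of 0 is 3 UMIs of the set. Rule genes, clone-based names and ribosomal protein or mitochondrially encoded genes were kept out of the ranked genes. Named genes were the 12 highest and 12 lowest ratios against ID-low cells by the interval bound nearest to 1 in both libraries, the 10 highest and 10 lowest between libraries, up to 2 at each end of each list, and 38 genes chosen by name. Further members of the lists, and genes said to be so, were named after their values were seen. The cells, the 24 gene lists and 10 marker lists, of whose 499 genes 495 were in the table, and the tests were chosen with earlier results of these data known. How the authors' counting treated close paralogs (histone, HLA, tubulin and ID genes) and strand was not given in the sources used here, so their split is uncertain. The ratio script was tested on simulated counts. Promoters came from RefSeq GRCh38.p14. Python 3.11.15, numpy 2.4.6, scipy 1.17.1, pandas 2.3.3 and matplotlib 3.10.9 were used.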

Additional observations from a re-analysis of the deposited data

Results flagged for a closer look

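HLA-C, an HLA class I gene, was looked at again because its ratio of ID-high over ID-low cells lay on opposite sides of 1 in the 2 libraries with counting intervals that exclude 1. It was 1.09 (1.03 to 1.14) in the library labelled treated and 0.916 (0.884 to 0.95) in the library labelled untreated. This was 1 of 56 genes looked at, both ratios were well short of 1.5-fold, and the difference was not tested. HLA class I genes are close in sequence, so that reads may be split between them.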

How the results depend on the processing

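No paired analysis was possible because each group had 1 library. Of 576 ratios of named genes under other settings, 496 kept their side of 1 and of 1.5-fold, 23 that were under 1.5-fold moved to the other side of 1 and were still under 1.5-fold, 45 fell short of it, 11 passed it and 1 past 1.5-fold reversed (SOX2 in the library labelled untreated, 0.860 in cells outside the cycle limits). With a threshold of 5 per 10000, 7 genes were higher than in ID-low cells in both libraries, and GADD45G, JUN and DLX4 were not among them. ID-high shares in the libraries labelled treated and untreated were 3.55% and 12.3% with a threshold of 5 per 10000, 0.569% and 6.09% with 20, 2.48% and 12.8% with thinned cells and 5.6% and 18.2% without cycle limits, and were higher in the library labelled untreated in all of these. Leaving out shared barcodes or the deepest cells moved them within their intervals.

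Against ID-low cells the counts higher and lower in both libraries, 8 and 1, were 38 and 44 with a minimum of 5 expected UMIs, 2 and 0 with 100, 3 and 0 in cells of 7000 to 12000 UMIs (48 and 183 ID-high cells in the libraries labelled treated and untreated), and 4 and 2 in cells with none of the mitotic genes (63 and 237). The lower count alone moved to 13 with a threshold of 20, 6 with thinned cells, 2 without shared barcodes, 2 with equal weight per cell, 0 with a pseudocount of 10 CPM and 5 outside the cycle limits. Against all other cells the counts, 25 and 208, were 79 and 413 with a minimum of 5, 4 and 56 with 100, 14 and 109 with a threshold of 20 and 9 and 131 with thinned cells, and the higher count was 14 with the pseudocount. Between libraries the counts, 249 and 340, were 836 and 1323 with a minimum of 5, 20 and 30 with 100, 64 and 112 with a threshold of 20 and 143 and 204 with the pseudocount; the higher count was 379 with a threshold of 5, and the lower was 202 at 7000 to 12000 UMIs and 221 in ID-high cells of 10 to under 20 per 10000. A minimum of 100 tests fewer genes by construction, and for the other settings the cause was not tested. The 116 ID-high cells labelled treated held 746495 UMIs and those labelled untreated 3187906, so fewer genes could be measured in the library labelled treated, and a gene called in the library labelled untreated alone is not shown to differ between libraries.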
